A study of Arabidopsis thaliana with 8 samples.

Results

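The genes described here are 10 Arabidopsis thaliana genes of root iron uptake and its transcriptional control, namely FIT, bHLH38, bHLH39, bHLH100, bHLH101, PYE, IRT1, FRO2, FRO3 and NAS4. They were chosen by locus, as a list drawn up with earlier results of these data known although its rule uses no measured value, and they are 10 of the 26716 loci that the array's probes cover. They have 12 probes, because FIT and IRT1 have 2 each. The RNA of Col-0 seedlings was measured on 8 single-colour Agilent arrays, in 2 groups of 4. The first group was the mutant bil1-1D, also called bzr1-1D, kept on 1 µM brassinazole for 14 days and then given 1 µM brassinolide for 3 hours. The second was the wild type, kept on 1 µM brassinazole for 14 days and then given the solvent DMSO for 3 hours. Brassinazole blocks brassinosteroid synthesis, brassinolide is an active brassinosteroid, and bil1-1D is a dominant mutation that stabilises BZR1, a transcription factor of the brassinosteroid pathway. Both groups were raised on MS-based agar (22 °C, 16 h light and 8 h dark), and the labels name no change in iron supply.

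Arabidopsis takes up iron by reduction. Root epidermal cells acidify the soil with plasma membrane proton pumps, FRO2 reduces ferric to ferrous iron at the cell surface, and IRT1 carries the ferrous iron into the cell. FIT, a basic helix-loop-helix (bHLH) transcription factor, switches on FRO2 and IRT1 as a dimer with bHLH38, bHLH39, bHLH100 or bHLH101, the closely related bHLH proteins of subgroup Ib. PYE is a further bHLH factor of the iron deficiency response, FRO3 is a ferric reductase of mitochondria, and NAS4 makes nicotianamine, a metal chelator that moves iron within the plant. FRO3 and NAS4 are known as genes that PYE represses.

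The comparison was the brassinolide-treated mutant against the DMSO-treated wild type, so genotype and treatment changed together. Each group lay on a slide of its own with a scan of its own, so genotype, treatment, slide and scan cannot be told apart. The 75th percentile of the processed signal was 3033 to 3821 on the mutant arrays and 4638 to 6153 on the wild-type arrays, and 74.5% to 75.8% against 79.5% to 80.6% of spots were well above background. Levels are therefore given as log2 of the signal over the array's own 75th percentile, called normalized log2 levels, where 0 is that percentile. The scanner software marked mutant replicate 4 and wild-type replicates 1 and 2 for evaluation. The labels do not say that replicates came from separate cultures, so the p-values measure the spread between these arrays, which may be technical. RNA came from seedlings, and fewer cells of a type and less RNA per cell cannot be told apart.

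Of the 10 genes, 8 were well above background on all 8 arrays and were tested, and bHLH100 and bHLH101 were too dim to test. In the treated mutant 2 of the 8 rose, FIT and NAS4, and none fell at an adjusted p under 0.05 (limma, Benjamini-Hochberg over all 22101 tested genes). Over all tested genes 55.9% passed this threshold, 30.2% higher and 25.7% lower, so the 25% among these genes lies under the background. Higher genes were 54.1% of all calls, against 32.1% of the calls with spike-in scaling and 43.9% with a normexp background correction. That correction, with an offset of 50, is the normexp correction named below. A second normexp run, on negative controls, gave 58.7%. None of the 8 passed the threshold with a change of at least 2-fold, where the background was 3.08% higher and 5.02% lower. The fitted difference was positive for 6 genes and negative for 2, with a median of 0.84 on the log2 scale against 0.03 over all tested genes. The differences with the widest intervals were those of IRT1 and FRO2, whose wild-type arrays differed most among themselves. Several calls turned on single wild-type arrays, and without wild-type replicate 1 the number past the threshold was 5, while without wild-type replicate 3 it was 4.

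**Figure D1:**
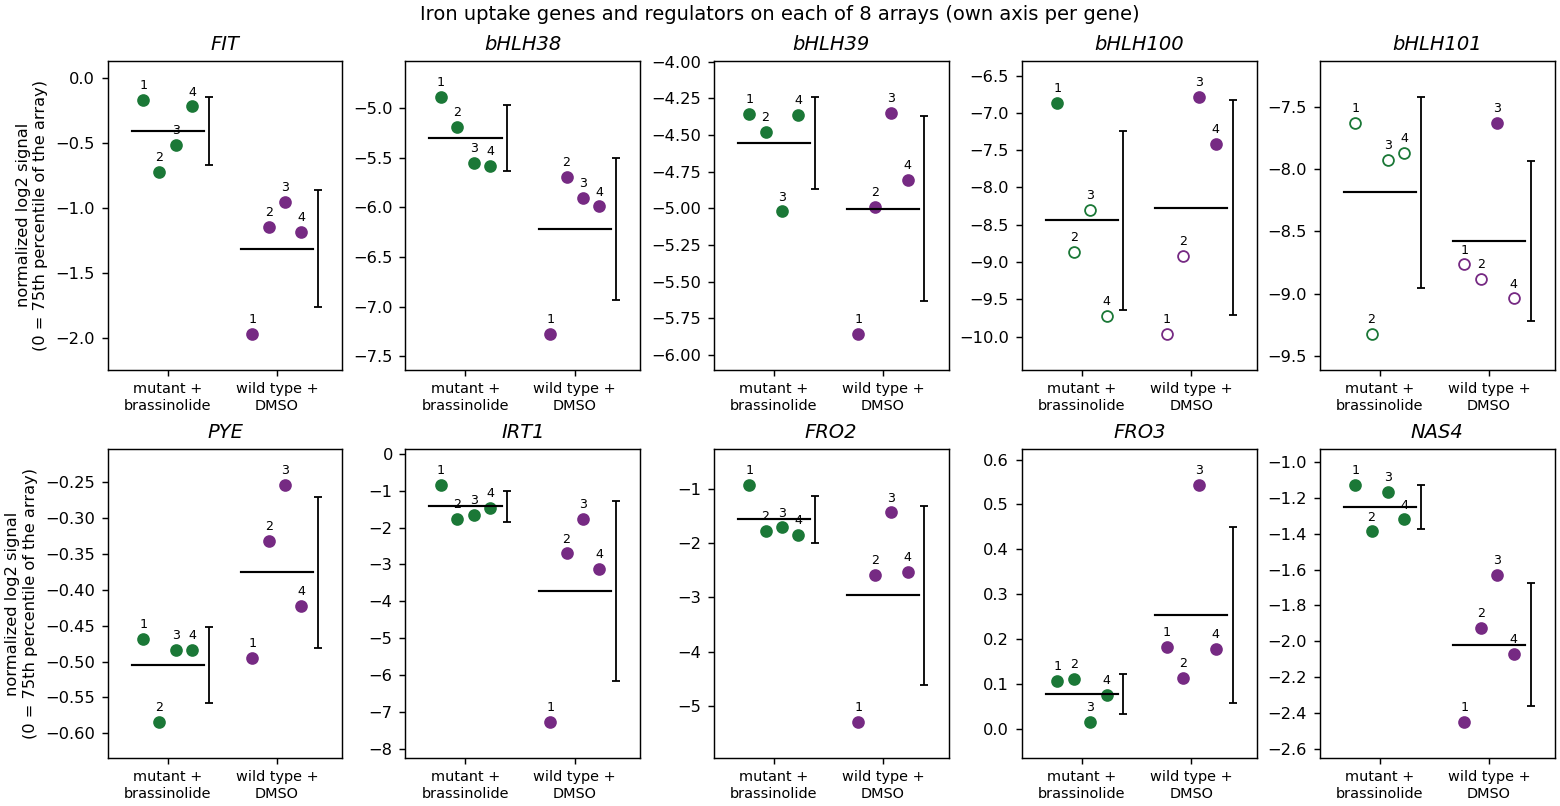
Normalized log2 level (0 is the array's 75th percentile) of the 10 genes on each array, with an axis of its own for each gene. Points are arrays numbered by replicate, open where the probe was not well above background, horizontal lines are group means and bars are SDs (n = 4); wild-type replicate 1 is the lowest wild-type array for FIT, bHLH38, bHLH39, PYE, IRT1, FRO2 and NAS4.

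FIT, the master regulator of the uptake genes (AT2G28160, chromosome 2), rose 1.87-fold in the treated mutant. Its normalized log2 level was -0.17, -0.72, -0.52 and -0.22 on mutant replicates 1 to 4 and -1.97, -1.15, -0.95 and -1.18 on wild-type replicates 1 to 4. Every mutant array was above every wild-type array, and wild-type replicate 1 was the lowest of all. The group means were -0.41 ± 0.26 and -1.31 ± 0.45 (SD, n = 4), a log2 difference of 0.91 ± 0.23 (SE, 95% interval 0.38 to 1.43, limma adjusted p = 0.0101). Groups that did not overlap were found for 52.2% of all tested genes, 28.2% with the mutant higher and 24% with it lower, and for 5 of these 8 genes, 4 and 1. Left without wild-type replicate 1, FIT differed by 0.69 with an adjusted p of 0.00658.

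The second FIT probe, designed to another transcript accession of the locus, did not pass. It read -2.64, -3.47, -3.25 and -2.80 on the mutant arrays and -3.67, -3.29, -3.04 and -3.33 on the wild-type arrays. The groups overlapped, and the difference was 0.30 ± 0.20 (SE, 95% interval -0.17 to 0.77, limma adjusted p = 0.249). The rise of FIT therefore rests on the brighter probe, which stood for the gene. As the mean of its probes FIT passed (0.60, limma adjusted p = 0.0396). The call on the brighter probe was lost without the 3 arrays marked for evaluation, where the difference was 0.60 and the adjusted p 0.0554.

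The partners of FIT that could be tested, bHLH38 and bHLH39, did not pass the threshold. They are neighbours on chromosome 3 (AT3G56970 and AT3G56980) and closely related, and whether their probes also bind the other's transcript was not tested. For bHLH38 the level was -4.88, -5.19, -5.55 and -5.58 on the mutant arrays and -7.28, -5.69, -5.91 and -5.99 on the wild-type arrays. The groups did not overlap, but the 3 higher wild-type arrays lay close under the mutant arrays while wild-type replicate 1 lay far below. The difference was 0.92 ± 0.34 (SE, 95% interval 0.12 to 1.71, limma adjusted p = 0.0508), just short of the threshold. Without wild-type replicate 1 it was smaller, 0.56, and passed with an adjusted p of 0.0341, and without wild-type replicate 2 it was 1.09 with an adjusted p of 0.0403. Processed signals of the bHLH38 probe were 64.7 to 129 on the mutant arrays and 39.7 to 100.2 on the wild-type arrays. With the normexp correction the difference turned to -1.19, but with normexp on negative controls it was 0.86 and passed (limma adjusted p = 0.0192).

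bHLH39 was at -4.36, -4.48, -5.02 and -4.37 on the mutant arrays and at -5.86, -4.99, -4.35 and -4.81 on the wild-type arrays. Wild-type replicate 3 was as high as the mutant arrays and wild-type replicate 1 was lower than all others. The difference of 0.45 ± 0.31 (SE, 95% interval -0.26 to 1.16, limma adjusted p = 0.246) did not pass, fell to 0.16 without wild-type replicate 1, and turned to -0.93 with the normexp correction and to -0.04 without the 3 marked arrays. With normexp on negative controls the difference was 0.44 (limma adjusted p = 0.228).

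The remaining subgroup Ib factors, bHLH100 (AT2G41240) and bHLH101 (AT5G04150), were near or below the limit of detection. bHLH100 was well above background on mutant replicate 1 and on wild-type replicates 3 and 4, where its level was -6.87, -6.78 and -7.42. On the other arrays it read -8.92 to -8.30, apart from -9.72 on mutant replicate 4 and the floor of -9.97 on wild-type replicate 1. bHLH101 was well above background on wild-type replicate 3 alone, at -7.63, and read -9.32 to -7.63 on the mutant arrays and -9.04 to -8.76 on the other wild-type arrays. No difference between the groups is given for either gene.

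PYE (AT3G47640), a repressor within the iron deficiency response, was nearly level across the 8 arrays. It stood at -0.47, -0.58, -0.48 and -0.48 on the mutant arrays and at -0.49, -0.33, -0.25 and -0.42 on the wild-type arrays. The groups overlapped through wild-type replicate 1, and the difference was -0.13 ± 0.06 (SE, 95% interval -0.27 to 0.01, limma adjusted p = 0.11). Without wild-type replicate 1 it was -0.17 with an adjusted p of 0.0425.

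IRT1, the iron transporter (AT4G19690, chromosome 4), had the largest mean difference of the 8 genes, yet did not pass. Its level was -0.84, -1.76, -1.66 and -1.46 on the mutant arrays and -7.27, -2.70, -1.77 and -3.12 on the wild-type arrays. The mutant arrays agreed within 1.89-fold, whereas the normalized levels of the wild-type arrays spanned 45.2-fold. Before scaling, the processed signal was 39.8 on wild-type replicate 1 and 1356 on wild-type replicate 3. The highest wild-type array fell only just under the lowest mutant array. The means were -1.43 ± 0.41 and -3.72 ± 2.44 (SD, n = 4), a difference of 2.29 ± 1.07 (SE, 4.87-fold, 95% interval -0.18 to 4.75, limma adjusted p = 0.102).

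The size of the IRT1 difference depended on wild-type replicates 1 and 3, the lowest and the highest of their group. Without replicate 1 it was 1.1 ± 0.35 (SE, 2.14-fold) and passed with a limma adjusted p of 0.0329, and the SD of the remaining wild-type arrays was 0.69. Without replicate 3 it was 2.93 ± 1.05 (SE, 7.63-fold) and passed with an adjusted p of 0.0488. The second IRT1 probe read -1.09, -1.97, -1.89 and -1.66 on the mutant arrays and -7.28, -2.85, -2.13 and -3.44 on the wild-type arrays. Both probes thus placed wild-type replicate 1 far below the rest, and the second gave 2.28 ± 1.01 (SE, adjusted p = 0.0872).

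FRO2, the ferric reductase that supplies IRT1 (AT1G01580, chromosome 1), followed the same arrays. It read -0.93, -1.77, -1.71 and -1.85 on the mutant arrays and -5.30, -2.59, -1.44 and -2.53 on the wild-type arrays. Wild-type replicate 3 lay above 3 of the 4 mutant arrays, so the groups overlapped, and the wild-type arrays spanned 14.5-fold. The means were -1.57 ± 0.43 and -2.96 ± 1.65 (SD, n = 4), a difference of 1.40 ± 0.74 (SE, 2.64-fold, 95% interval -0.30 to 3.1, limma adjusted p = 0.139). It was 0.62 (1.54-fold, adjusted p = 0.166) without wild-type replicate 1 and 1.91 (3.75-fold, adjusted p = 0.0482) without wild-type replicate 3.

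Of the genes that do not act at the root surface, NAS4 rose and FRO3 did not pass. NAS4 (AT1G56430) was at -1.13, -1.39, -1.17 and -1.32 on the mutant arrays and at -2.45, -1.93, -1.63 and -2.07 on the wild-type arrays. The groups did not overlap, with means of -1.25 ± 0.12 and -2.02 ± 0.34 (SD, n = 4). The difference was 0.77 ± 0.16 (SE, 1.70-fold, 95% interval 0.40 to 1.14, limma adjusted p = 0.00439), and it passed whichever single array was left out, from 0.62 to 0.90. With the normexp correction it was 0.50 and did not pass (adjusted p = 0.13), but with normexp on negative controls it was 0.78 and passed (limma adjusted p = 0.00477).

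FRO3 (AT1G23020) was at 0.11, 0.11, 0.01 and 0.08 on the mutant arrays and at 0.18, 0.11, 0.54 and 0.18 on the wild-type arrays. All mutant arrays were under all wild-type arrays, but by less than the second decimal at the nearest pair. The difference of -0.18 ± 0.09 (SE, 95% interval -0.39 to 0.04, limma adjusted p = 0.141) did not pass. It came largely from wild-type replicate 3, without which it was -0.08.

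**Figure D2:**
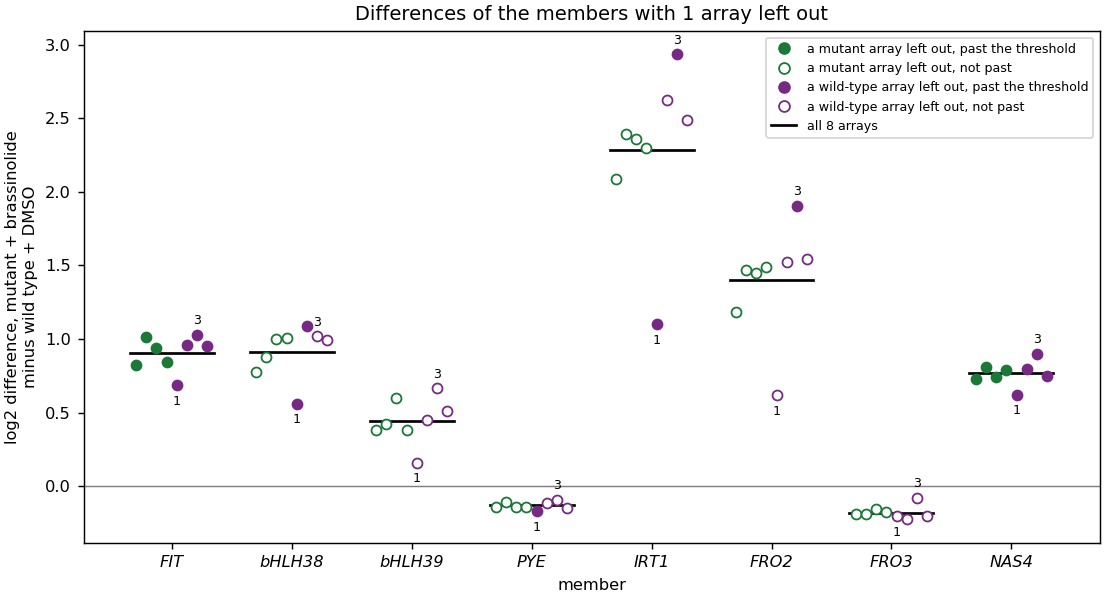
Log2 difference (mutant with brassinolide minus wild type with DMSO) of the 8 tested genes when 1 array at a time was left out, in green for a mutant array and purple for a wild-type array, filled where the limma adjusted p was under 0.05. Black lines give the value on all 8 arrays; leaving out wild-type replicate 1 moved IRT1 from 2.29 to 1.1 and FRO2 from 1.40 to 0.62.

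The uptake genes varied within the wild type more than most genes did. Ranked by SD over the 4 wild-type arrays among the 22101 tested genes, IRT1 was the 3rd with 2.44 and FRO2 the 10th with 1.65, where the median gene had 0.116. bHLH38 ranked 259 and bHLH39 391, FIT ranked 1002 and NAS4 1962. FRO3 and PYE followed at ranks 5602 and 12245. The ferric reductase genes FRO6 and FRO7, outside the 10 genes, had wild-type SDs of 1.54 and 1.62. Both were low on wild-type replicates 1 and 2 and highest on wild-type replicate 4. On the mutant arrays the SDs of IRT1 and FRO2 were 0.41 and 0.43, at ranks 1377 and 1279, and the median gene had 0.0926.

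The low wild-type values among the 8 genes lay mostly on the same array. Wild-type replicate 1 was the lowest wild-type array for 7 of the 8 genes, FRO3 being the exception, and it was the lowest for 40.3% of all tested genes. Wild-type replicate 3 was the highest for 7 of the 8, with bHLH38 the exception, against 35.2% of all tested genes. Mutant replicate 1 was the highest mutant array for 7 of the 8, FRO3 again excepted, against 28.8%. Only 35 tested genes, or 0.158%, were at least 1 log2 unit under all 3 other wild-type arrays on wild-type replicate 1. IRT1 had the widest such gap, 4.16, FRO2 had the third widest, 2.71, and bHLH38 was the 16th with 1.29. Outside the 10 genes, the widest gaps were those of AT1G10745 (3.07), MIR846 (2.36), CYP78A8 (2.26) and the potassium transporter gene HAK5 (2.17). Further down came the vacuolar manganese transporter gene MTP8 and SAUR19, each with 1.08. These genes were named after their values were seen. On the other 7 arrays between 10 and 61 genes were this far below the rest of their group.

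Markers of organs and cell types moved less than the iron genes on wild-type replicate 1. On mutant replicate 1 the root epidermis markers moved more than the iron genes, and the endodermis and stele markers and the shoot markers moved less. The mean log2 level of the 8 iron genes was 1.51 lower on wild-type replicate 1 than the mean of the other 3 wild-type arrays (a difference of -1.51). The same difference was -0.29 for 9 markers of root epidermis and root hairs, -0.36 for 7 markers of root endodermis and stele, and -0.19 for 5 shoot markers. The value of the iron genes averages unlike members, since IRT1 and FRO2 had the gaps of 4.16 and 2.71 while PYE lay 0.072 under the next array and FRO3 was not the lowest there. On mutant replicate 1 the iron genes were 0.38 above the mean of the other 3 mutant arrays and the root epidermis markers 0.46, the endodermis and stele markers 0.15 and the shoot markers -0.12. All 21 markers were well above background on all 8 arrays. The summed level of the root epidermis list, in units of the 75th percentile, ran from 1.58 to 3.03 over the mutant arrays and from 2.18 to 2.83 over the wild-type arrays. For the endodermis and stele list the ranges were 4.10 to 6.10 and 3.81 to 5.23, and for the shoot list 229 to 257 and 198 to 241. Between the groups, where 55.9% of all tested genes passed, 1 epidermis marker was higher (WER, 0.81), 1 was lower (RHD6, -0.84) and 7 did not pass. In the endodermis list CASP5 and CASP4 were higher by 2.32 and 0.56 and 5 did not pass. Of these 5, PHO1 was lower on its dimmer probe (-0.30, limma adjusted p = 0.023). Of the 5 shoot markers, each on its brightest probe, 2 were higher (CAB1, 0.24, and RBCS1A, 0.18), 2 were lower (GLK1, -0.78, and LHCB2.1, -0.46) and 1 did not pass (CA1, -0.08). The dimmer probes of CA1 were all lower past the threshold, from -0.27 to -2.72. No dimmer CAB1 probe passed, and dimmer RBCS1A probes passed in both directions (up to 0.36 and down to -0.23). The dimmer LHCB2.1 probe did not pass (-0.21, limma adjusted p = 0.535). The part of the markers in the differences of the iron genes was not tested.

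**Figure D3:**
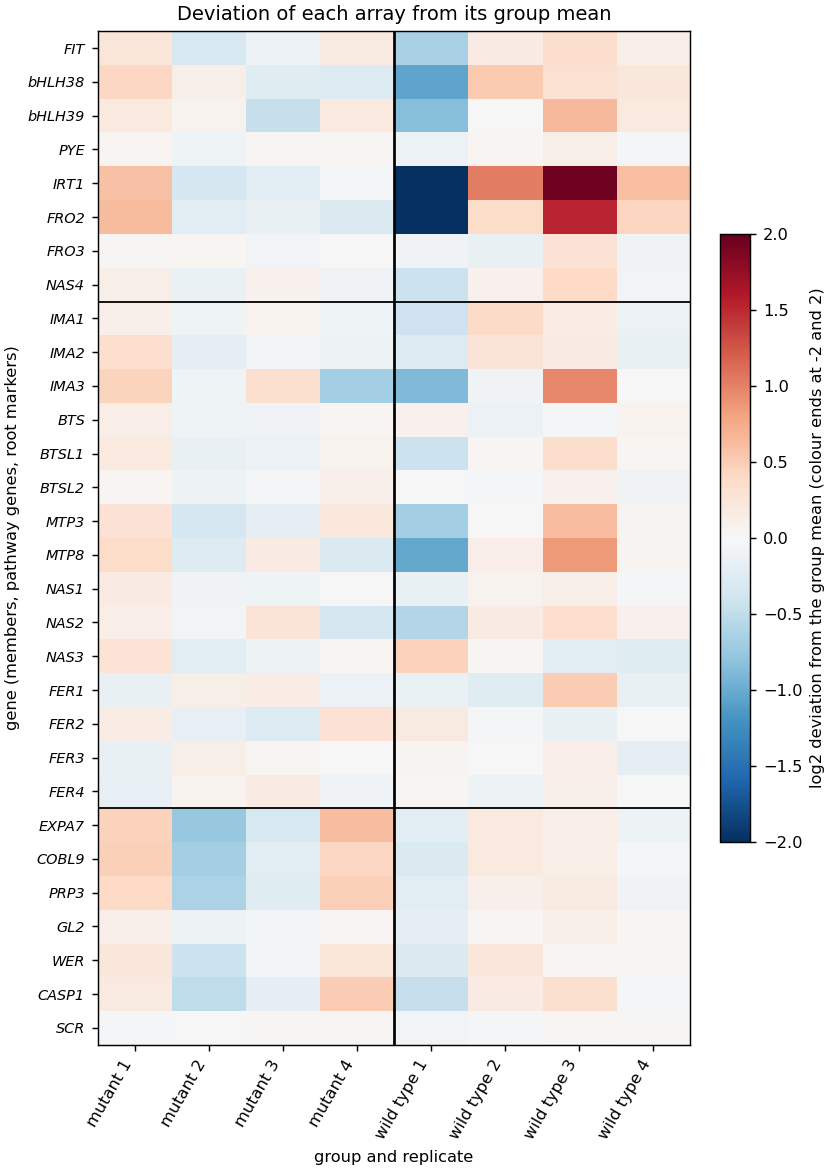
Deviation of each array from its group mean (log2, colour ends at -2 and 2) for the 8 tested iron uptake genes and regulators, 15 further iron genes and 7 root markers, separated by horizontal lines. Rows are genes and columns are arrays; IRT1 and FRO2 are darkest blue on wild-type replicate 1 and darkest red on wild-type replicate 3.

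Most of the regulators and uptake genes deviated together over all 8 arrays, for several pairs mainly through wild-type replicate 1 and mutant replicate 1. Over the 8 deviations from the group means, Pearson's r was 0.22 to 0.98 for the 28 pairs of the 8 tested genes. The lowest pair was FRO3 and bHLH38. For the 15 pairs among FIT, bHLH38, bHLH39, IRT1, FRO2 and NAS4, a set put together after their values were seen, r was 0.75 to 0.98. This set leaves out FRO3 and also PYE, which had r = 0.94 with NAS4 and 0.61 with bHLH38. For the 15 pairs r was 0.12 to 0.93 without wild-type replicate 1 and -0.65 to 0.90 without mutant replicate 1 as well, with FIT and bHLH38 the lowest pair in both. The points share arrays, scaling and group means, so these are descriptions. IRT1 and FRO2 were the closest pair (r = 0.98, Spearman's rho = 0.83), and r was 0.93 without wild-type replicate 1 and 0.90 without mutant replicate 1 as well. IRT1 and NAS4 behaved alike in this respect (r = 0.91, rho = 0.83, and 0.89 in both reduced sets). The likeness of IRT1 to FIT was weaker without the extreme arrays (r = 0.92, rho = 0.81, then 0.74 and 0.61). That of IRT1 to bHLH38 rested on them (r = 0.91, rho = 0.79, then 0.39 and -0.11).

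**Figure D4:**
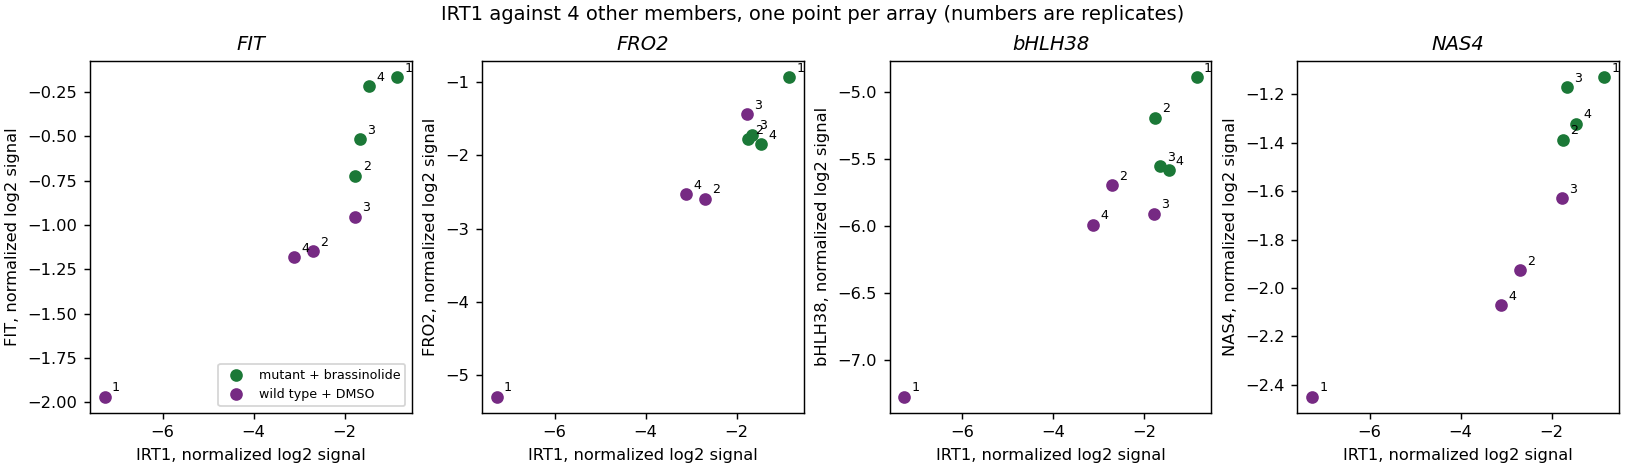
Normalized log2 level of FIT, FRO2, bHLH38 and NAS4 (vertical axes, own scale each) against that of IRT1 (horizontal axes) on the 8 arrays, numbered by replicate. Wild-type replicate 1, at -7.27 for IRT1, lies at the lower left of every panel.

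Other genes had array patterns as close to these as the iron genes themselves. Among 20959 other genes well above background on all 8 arrays, the deviations most like those of IRT1 were those of SETH6 (r = 0.996), AT1G30910 (r = 0.994) and HB-8 (r = 0.992). Their own deviations were small, with SDs of 0.0826, 0.0444 and 0.21 against 1.62 for IRT1. For bHLH38 the closest were AT2G04700 (r = 0.988), AT2G39620 (r = 0.983) and AT5G10210 (r = 0.974). For bHLH39 they were AT3G10040 (r = 0.985), AT2G44255 (r = 0.973) and FLS5 (r = 0.965). The closest of so many genes over 8 arrays reach a high r through selection. These values were not computed without wild-type replicate 1, so they are not comparable with the reduced values of the iron gene pairs.

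The wider iron network held genes that were higher and genes that were lower. Of 58 further iron genes in 8 lists, 52 were tested, of which 14 were higher, 10 were lower and 28 did not pass. That is 46.2% past the threshold, with a median log2 difference of 0.05, beside 55.9% and 0.03 over all tested genes, of which 30.2% were higher and 25.7% lower. With spike-in scaling 10 passed, 2 higher and 8 lower.

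**Figure D5:**
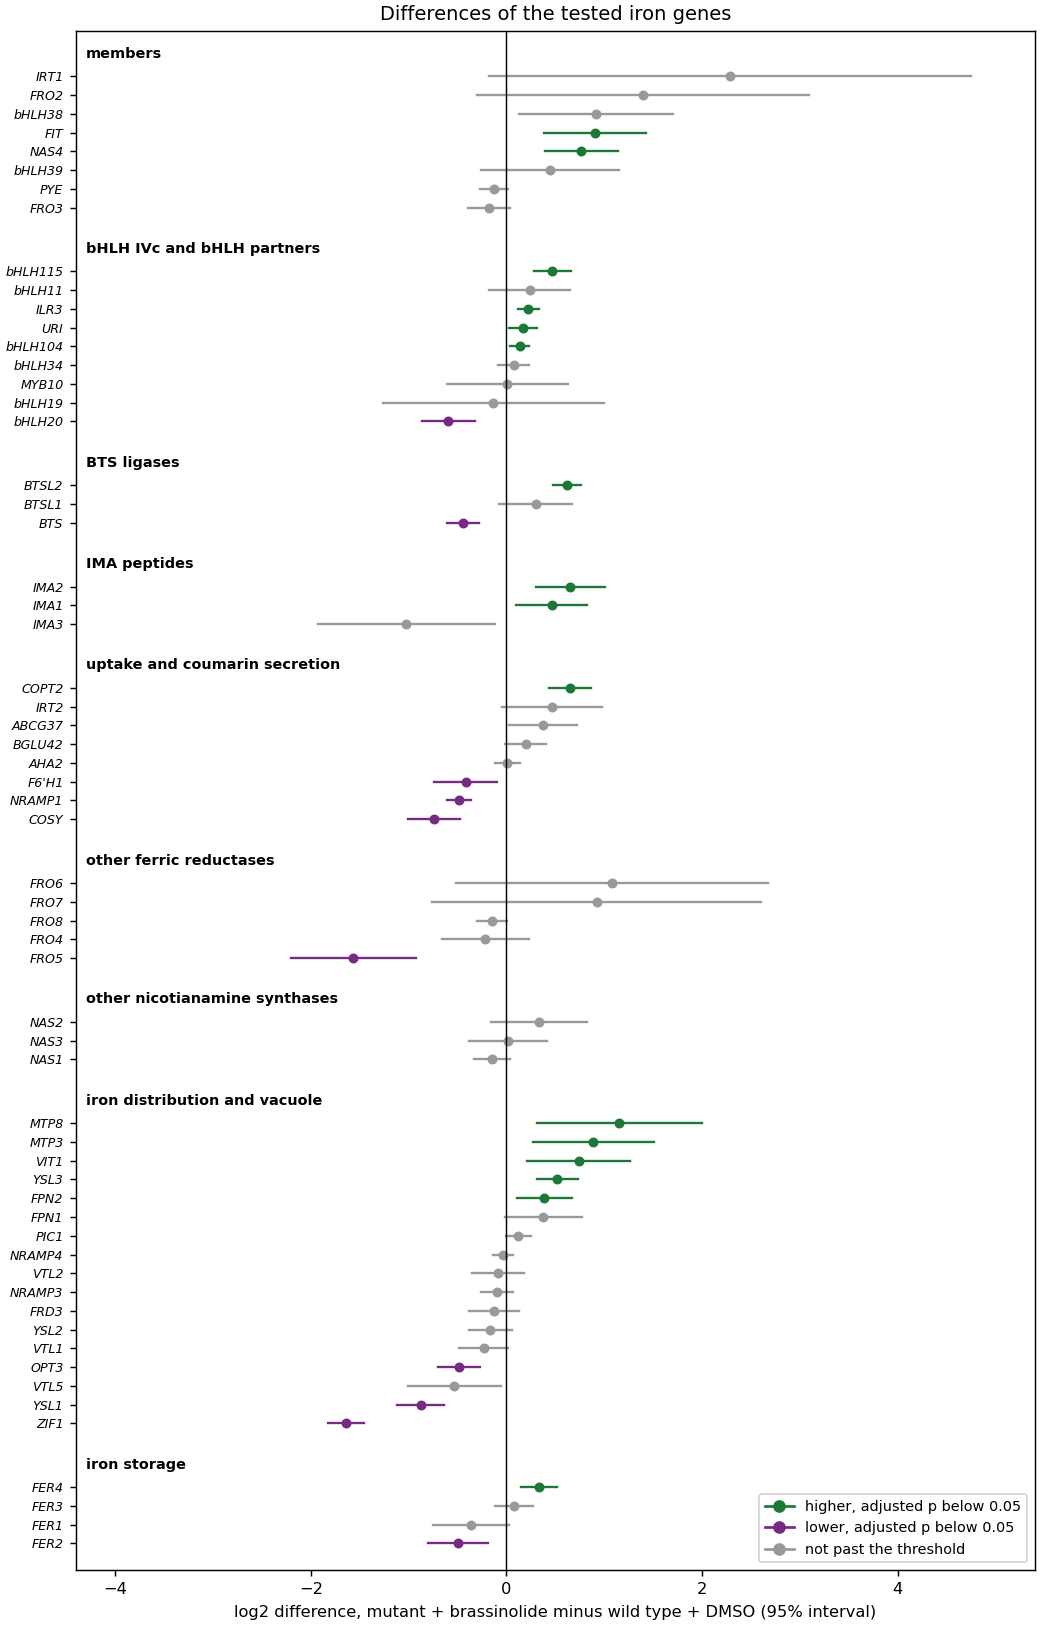
Log2 difference (mutant with brassinolide minus wild type with DMSO, points) with its 95% interval (lines) for the 8 tested iron uptake genes and regulators and for 52 further iron genes in 8 lists, with green for higher, purple for lower and grey for not past the threshold. The intervals of IRT1 and FRO2 are the widest of the first group and include 0.

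Upstream of FIT and its partners act the bHLH factors of subgroup IVc, the BTS ubiquitin ligases that limit them, and the small IMA peptides that promote the deficiency response. In the list of subgroup IVc and other bHLH and MYB partners, 4 of 9 tested genes were higher, 1 was lower and 4 did not pass. Of the 4 higher genes, URI gave 0.17 on its brighter probe (limma adjusted p = 0.0486) and -0.53 on the other (adjusted p = 0.000895). Both probes of bHLH104 were higher (0.14 and 0.29). bHLH115 was 0.47 ± 0.08 higher (SE, limma adjusted p = 0.00175), although its second probe was lower by -0.24 (adjusted p = 0.0462). ILR3, also of subgroup IVc, was higher by 0.23 ± 0.05 (SE, limma adjusted p = 0.00363), although its second probe did not pass (0.09, adjusted p = 0.367). With spike-in scaling neither bHLH115 nor ILR3 passed (adjusted p = 0.279 and 0.801), and bHLH115 did not pass as the mean of its probes (0.11, adjusted p = 0.274). The gene lower in this list was bHLH20, by -0.60 ± 0.12 (SE, limma adjusted p = 0.00336), whose product promotes FIT degradation. MYB72 was not well above background on any array. bHLH18 was above it on wild-type replicate 1 alone, on 1 of its probes, and bHLH25 was above it on some wild-type arrays and on no mutant array, so neither was tested.

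The 3 BTS ligase genes went different ways. BTS fell by 0.44 ± 0.07 on the log2 scale (SE, limma adjusted p = 0.00127), from -1.39 ± 0.10 in the wild type to -1.84 ± 0.10 in the mutant (SD, n = 4). The second, dimmer BTS probe did not pass (-0.17, adjusted p = 0.346). BTSL2, which acts on FIT in roots, rose by 0.62 ± 0.06 (SE, limma adjusted p = 0.000102), from -1.33 ± 0.07 to -0.71 ± 0.09. BTSL1 differed by 0.30 ± 0.16 and did not pass (adjusted p = 0.146), nor did its dimmer probe (0.005, adjusted p = 0.988). With spike-in scaling neither BTS nor BTSL2 passed, at adjusted p = 0.076 and 0.108.

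Of the neighbouring peptide genes on chromosome 1, IMA2 rose by 0.65 ± 0.15 (SE, limma adjusted p = 0.00736), but did not pass with spike-in scaling (adjusted p = 0.0829) or with the normexp correction (0.37, adjusted p = 0.15). IMA1 was 0.46 ± 0.16 higher (SE, limma adjusted p = 0.037), a call that was lost in 6 of the 8 fits with 1 array left out. The IMA1 difference was -0.05 with the normexp correction, and 0.34 with spike-in scaling, where it did not pass (adjusted p = 0.279). With normexp on negative controls both IMA2 (0.62, limma adjusted p = 0.00599) and IMA1 (0.47, adjusted p = 0.0295) passed. IMA3 had the opposite sign, -1.02 ± 0.39, and did not pass in the reported fit (limma adjusted p = 0.0554). Without wild-type replicate 1 it was -1.32 with an adjusted p of 0.0162. On all 8 arrays it passed with spike-in scaling (-1.15, adjusted p = 0.00119), array weights (-0.96, adjusted p = 0.0261) and eBayes with trend and robust (adjusted p = 0.0465). It did not pass with the normexp correction (-1.27, adjusted p = 0.0622). On wild-type replicate 1 the mean log2 level of the 3 peptide genes differed by -0.70 from that of the other 3 wild-type arrays.

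Among 8 tested genes of uptake and of coumarin secretion, by which roots release iron-mobilising phenolics, 1 rose, 3 fell and 4 did not pass. COPT2, a copper transporter gene, rose by 0.65 ± 0.09 (SE, limma adjusted p = 0.00061), and did not pass with spike-in scaling (adjusted p = 0.0691). COSY, a coumarin synthase gene, fell by 0.74 ± 0.12 (SE, limma adjusted p = 0.00106), and NRAMP1, which encodes a transporter of manganese and iron, fell by 0.49 ± 0.05 (adjusted p = 0.000156) but did not pass with the normexp correction (-0.26, adjusted p = 0.064). With normexp on negative controls NRAMP1 passed (-0.35, limma adjusted p = 0.00232). AHA2, the proton pump that acidifies the root surface, gave 0.01 ± 0.05 on its brighter probe (adjusted p = 0.903) and -1.05 ± 0.06 on the other (adjusted p = 8.59e-06). The probes disagree, and no direction is given for AHA2. S8H, a coumarin hydroxylase gene, was well above background on mutant replicate 1 alone.

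None of the other ferric reductase genes rose past the threshold. FRO5, whose product reduces copper, fell by 1.57 ± 0.28 on the log2 scale (SE, 2.96-fold, limma adjusted p = 0.0019), from -2.93 ± 0.46 in the wild type to -4.49 ± 0.44 in the mutant (SD, n = 4). Its chromosomal neighbour FRO4 differed by -0.22 ± 0.19 and did not pass (adjusted p = 0.364), and 4 of the 5 tested genes in this list did not pass. Among them FRO6 differed by 1.08 ± 0.69 and FRO7 by 0.92 ± 0.73 (SE, limma adjusted p = 0.216 and 0.311). Their wild-type arrays spanned 8.94-fold and 10.8-fold. FRO8 differed by -0.15 ± 0.07 (SE, adjusted p = 0.0975). FRO1, the neighbour of FRO2, was not well above background on any array.

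NAS4 was the single nicotianamine synthase gene of the 4 past the threshold, though the difference between it and the others was not tested. NAS1 differed by -0.15 ± 0.08 (adjusted p = 0.148), NAS2 by 0.33 ± 0.21 (adjusted p = 0.211) and NAS3 by 0.02 ± 0.17 (adjusted p = 0.941), with limma SEs. The sign of NAS3 turned with spike-in scaling (-0.11), and those of NAS2 and NAS3 with the normexp correction (-0.09 and -0.03). Neither sign turned with normexp on negative controls (0.33 and 0.08).

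Of 17 genes of iron distribution and the vacuole, 5 rose, 3 fell and 9 did not pass. MTP8 rose by 1.15 ± 0.36 (SE, 2.23-fold, limma adjusted p = 0.0266) and MTP3, a vacuolar zinc transporter gene, by 0.89 ± 0.27 (SE, limma adjusted p = 0.0222). Both are dim and depended on single arrays, with 5 and 6 of the 8 fits with 1 array left out past the threshold, neither passed without the 3 marked arrays (0.80 and 0.48), and both turned negative with the normexp correction (-1.64 and -0.45). With normexp on negative controls both passed, at 0.92 (limma adjusted p = 0.00384) and 0.83 (adjusted p = 0.0167). ZIF1, which loads nicotianamine into the vacuole, fell by 1.64 ± 0.08 (SE, 3.12-fold, limma adjusted p = 4.05e-06), from 0.26 ± 0.16 to -1.38 ± 0.05 (SD, n = 4). Its second probe was detected (well above background) on each of the 4 wild-type arrays and on no mutant array. YSL1, a transporter gene for metal complexes of nicotianamine, fell by 0.88 ± 0.10 (SE, limma adjusted p = 0.000256).

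The 4 ferritin genes, which encode iron storage proteins found mainly in plastids, split evenly on their brightest probes. FER4 rose by 0.33 ± 0.08 (SE, limma adjusted p = 0.00829) and FER2 fell by 0.49 ± 0.13 (SE, limma adjusted p = 0.0137). FER1 differed by -0.36 ± 0.17 (adjusted p = 0.0973) and FER3 by 0.08 ± 0.08 (adjusted p = 0.459), and neither passed on its brightest probe. Of the dimmer FER1 probes, 1 was lower by -0.62 (limma adjusted p = 0.0262) and 1 did not pass (-0.27, adjusted p = 0.334). The dimmer FER4 probe did not pass (0.14, adjusted p = 0.171). With spike-in scaling neither FER4 nor FER2 passed (adjusted p = 0.561 and 0.073), FER4 did not pass without the 3 marked arrays (adjusted p = 0.084), and FER3 turned to -0.04.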

How the data were processed

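RNA (200 ng of total RNA per sample, Cy3) from 8 seedling samples was hybridised to single-colour arrays, per the labels' protocols. The deposited intensity values are Agilent Feature Extraction processed signals, background-subtracted and not normalized between arrays, per the file headers. The headers name version 11.5.1.1 and the submitters' processing notes 9.1.3.1. The authors' deposited value table was read as natural log values, from a slope of 0.933 to 0.961 on the natural log of each array's processed signals (median -0.970 on each array); its centring is unknown, its log base is inferred, its direction follows the signal, and it served as an alternative only. The array design cites genome build TAIR10; no genome was used.

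Outlier spots (93) were left out and 0 spots were saturated. Of 43603 probes, 36163 matched 1 locus of the RefSeq table (TAIR10.1) and 7440 none. Each array's signals were scaled to its 75th percentile (control probes excluded), floored at 0.001 of it and converted to log2. Probes entered the test when every array of 1 group or both had them well above background, and the brightest such probe stood for its gene. The groups come from the labels. Their difference was fitted without covariates by lmFit and eBayes (limma 3.58.1, R 4.3.3), and p-values of 22101 genes were adjusted by Benjamini-Hochberg (threshold 0.05). The number of arrays limits the precision. The script was tested on simulated data. Python 3.11.15 with pandas 2.3.3 did the rest.

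The iron genes and lists were chosen with earlier results of these data known. Named further genes are the 2 largest rises and 2 largest falls past the threshold in lists of at least 5 tested genes, all genes of smaller lists, list genes undetected in exactly 1 group, and AHA2. For IRT1, bHLH38 and bHLH39 the 3 genes with the most similar deviations are named. MYB72, URI, bHLH104, FRO1, FRO4, FRO6, FRO7, FRO8 and the genes low on wild-type replicate 1 were named after their values were seen. Alternatives were other scalings, background corrections, filters, probe rules and variance models, the deposited value table, a replicate block, and leaving out arrays.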

Additional observations from a re-analysis of the deposited data

Results flagged for a closer look

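In 4 of 90 groups of 4 arrays, over the probes of the 10 iron genes and 1 probe of each further gene named by the rule for named genes, 1 array stood apart from the other 3 by more than Dixon's 95% critical value (the gap to the nearest array over the group's range); chance gives about 1 in 20. The other listed genes were not checked in this way. FRO2 on mutant replicate 1 was the highest of its group at -0.93 (ratio 0.855, next array -1.71). FRO3 on wild-type replicate 3 was the highest at 0.54 (ratio 0.836, next 0.18). FER1 was also highest on wild-type replicate 3, at 4.16 (ratio 0.852, next 3.53). PYE on mutant replicate 2 was the lowest at -0.58 (ratio 0.871, next -0.48). The low values of IRT1 and FRO2 on wild-type replicate 1 did not pass this criterion.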

How the results depend on the processing

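Of the 10 iron genes, 2 passed the threshold in the reported fit, 5 with spike-in scaling, 0 with normexp and an offset of 50 (limma, 1 at an unadjusted p under 0.05), and 2 to 5 with 1 array left out; the other alternatives gave 2 or 3. The listed pathway genes past the threshold numbered 24, 10 with spike-in scaling and 18 to 26 with 1 array left out, and all genes 12349, 4396 with spike-in scaling and 10750 to 12330. Spike-in scaling moved the median difference of all genes from 0.03 to -0.09, normexp with an offset of 50 (normexp below) to -0.17, and normexp on negative controls to 0.06. bHLH38 passed with median scaling (0.97, adjusted p = 0.0347), quantile normalization (1.02), spike-in scaling (0.79), normexp on negative controls (0.86), the authors' value table (0.89), the filter on all 8 arrays and eBayes with trend and robust (both 0.92), and without the 3 arrays marked for evaluation (0.74). With spike-in scaling IRT1 (2.16, adjusted p = 0.00415) and FRO2 (1.28, adjusted p = 0.018) passed too. Their SEs were 0.54 and 0.39 there, against 1.07 and 0.74 in the reported fit. For BTSL2 the SE rose from 0.06 to 0.22, with a difference of 0.50, and for ILR3 from 0.05 to 0.21, with a difference of 0.10. FIT did not pass with normexp (0.76), without the marked arrays (0.60) or on its other probe (0.30), nor NAS4 with normexp (0.50). FIT and NAS4 passed with normexp on negative controls (0.93 and 0.78). Signs turned with normexp for bHLH38 (-1.19), bHLH39 (-0.93), IMA1 (-0.050), NAS2 (-0.087), NAS3 (-0.030), MTP8 (-1.64) and MTP3 (-0.45), with spike-in scaling for NAS3 (-0.11), FER3 (-0.044) and AHA2 (-0.11), with the mean of all probes (-0.52) and array weights (-0.030) for AHA2, and without the marked arrays for AHA2 (-0.013) and bHLH39 (-0.039). None of the signs that turned with normexp turned with normexp on negative controls. The cause of these changes was not tested.

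With 1 array left out, the differences ran from 0.69 to 1.03 for FIT, 1.1 to 2.93 for IRT1, 0.62 to 1.91 for FRO2, -0.22 to -0.081 for FRO3, 0.56 to 1.09 for bHLH38, 0.16 to 0.67 for bHLH39, 0.62 to 0.90 for NAS4 and -0.17 to -0.089 for PYE. NAS3 (-0.073 to 0.17) and AHA2 (-0.025 to 0.037) crossed 0. In their deviations from the group means, same-numbered arrays of the groups correlated at -0.10, -0.28, 0.17 and 0.04. The labels do not say whether the numbers pair the samples, and these values cannot decide it. The reported fit did not pair them. With the replicate block 2 iron genes, 17 pathway genes and 11337 genes passed, with FIT at an adjusted p of 0.0373 and NAS4 at 0.0149. A block for slide or scan could not be fitted, since each holds 1 group. Normexp ran on the median spot signal only. Signal over background limits bHLH100, bHLH101, bHLH38 and MTP8.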
